A study of Mus musculus with 6 samples.

Results

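The oligodendrocyte lineage genes described here are Olig1, Olig2, Nkx2-2, Sox10, Pdgfra, Cspg4, Myrf, Mbp and Cnp, 9 of the 53110 genes listed for neural stem cells (NSCs). They were chosen by name, with earlier results of this same WT against Setd5+/- comparison in view, so their differences are given as a description and no test is put on them. NSCs had been derived from the telencephalic cortex of embryonic mice, and WT cells were set against cells with a heterozygous Setd5 mutation made by CRISPR-Cas9. Both genotypes were kept as adherent cultures at 21% O2 in a medium with bFGF and EGF, and the labels list 3 samples of each. In the table, the 3 mutant columns share one culture name, one index and one lane, and so do the 3 WT columns, so each genotype is represented by one culture.

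Oligodendrocytes wrap axons in myelin. They arise from dividing precursors (OPCs), which in turn are specified from neural progenitors by bHLH transcription factors of the Olig family. Sox10 and Nkx2-2 act with the Olig factors as the precursors form and mature, Myrf switches on the myelin genes, and Mbp and Cnp encode proteins of the myelin sheath. Cortical progenitors grown with bFGF and EGF are known to express Olig genes, and so the presence of Olig transcripts does not by itself mark a cell as a precursor of oligodendrocytes.

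In these data Sox10 was almost absent from Setd5+/- NSCs and Mbp was about 5.08-fold lower, Olig1 and Olig2 were each lower by less than 2-fold, Cspg4, Cnp and Myrf were higher by less than 2-fold, and Nkx2-2 and Pdgfra lay closest to the WT level. The counting intervals of Sox10, Mbp, Olig1 and Olig2 lay below the WT level and those of Cspg4, Cnp, Myrf and Pdgfra above it, while that of Nkx2-2 included it.

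RefSeq promoter sequences (GRCm38.p6, 250 bases before and 50 bases after the gene start) were at hand for 5 of the 9 genes, and those of Olig2, Cspg4 and Cnp are shown because these genes differed most among the 5. Capitals mark the letters ACAAT and ACAAAG on either strand, 2 forms of the motif that proteins of the Sox family, Sox10 among them, bind. The Olig2 promoter is chr16:91225300-91225599 on the plus strand, that of Cspg4 is chr9:56864854-56865153 on the plus strand, and that of Cnp is chr11:100574689-100574988 on the plus strand.
Olig2: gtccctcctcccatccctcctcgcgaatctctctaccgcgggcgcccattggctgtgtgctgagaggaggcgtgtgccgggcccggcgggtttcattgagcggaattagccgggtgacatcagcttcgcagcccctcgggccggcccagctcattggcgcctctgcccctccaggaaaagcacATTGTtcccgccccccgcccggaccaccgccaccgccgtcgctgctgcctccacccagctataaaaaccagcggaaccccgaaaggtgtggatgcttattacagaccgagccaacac
Cspg4: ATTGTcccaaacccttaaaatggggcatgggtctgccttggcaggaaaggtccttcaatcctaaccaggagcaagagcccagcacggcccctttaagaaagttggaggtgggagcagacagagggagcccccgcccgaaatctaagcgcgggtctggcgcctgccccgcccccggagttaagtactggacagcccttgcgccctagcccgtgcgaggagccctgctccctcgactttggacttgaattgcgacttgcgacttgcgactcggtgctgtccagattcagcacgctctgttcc
Cnp: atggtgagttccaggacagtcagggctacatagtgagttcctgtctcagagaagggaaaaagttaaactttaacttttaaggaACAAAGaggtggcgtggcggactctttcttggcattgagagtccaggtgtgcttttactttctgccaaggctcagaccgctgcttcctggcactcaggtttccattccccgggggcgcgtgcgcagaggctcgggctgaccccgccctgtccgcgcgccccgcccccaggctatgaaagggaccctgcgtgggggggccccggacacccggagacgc
Each of the 3 windows holds a single such match, ACAAT in Olig2 and Cspg4 and ACAAAG in Cnp, while 31% of 32851 mouse promoters of this length hold ACAAT and 18.7% hold ACAAAG. The E-box letters CANNTG, the form that bHLH factors such as Olig2 bind, occur once in the Cnp window and in neither of the others, against 72.3% of all promoters. The Nkx2-2 promoter holds 3 E-boxes and 1 ACAAT, and that of Pdgfra holds 2 E-boxes and neither Sox form. These matches describe letters in the windows only, and whether any factor binds them was not tested.

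The values are normalized counts, that is, reads on a gene divided by a size factor for the sample. Each WT sample had between 9995980 and 10004948 reads counted on genes, and each mutant sample between 7143309 and 7146147. Within a genotype the samples differed by no more than sampling noise (chi-square over its degrees of freedom of 0.96 to 0.98, against 32.5 to 32.9 between genotypes). They were therefore added up and counted as 1 library of each genotype, so n = 1, there is no replicate error, and an effect of the genotype cannot be told apart from one of the clone, the culture, the library, the index or the lane. Errors are given as 95% counting intervals (exact Clopper-Pearson, on read pairs), which cover counting error only. Setd5 itself had 2498, 2749 and 2780.1 normalized counts in WT and 2151, 1990 and 2055 in Setd5+/- samples, 77.2% of the WT level (73.6% to 81%). Of 16266 genes whose mean normalized count reached 10, called tested genes below, 10.6% were at least 2-fold higher and 6.34% at least 2-fold lower in Setd5+/- cells, and the median log2 fold change was -0.02. Genes of chromosome 1 stood apart with a median of 0.54. No lineage gene described here lies there, and the 8 chromosomes that carry them had medians between -0.10 and -0.02.

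All 9 genes passed the filter, but Sox10 and Mbp passed it only through their WT level. Beside the backgrounds of 10.6% and 6.34%, 0 of 9 were at least 2-fold higher and 2 of 9, Sox10 and Mbp, were at least 2-fold lower, and nothing is read from these counts because the same contrast was known when the genes were chosen. The median log2 fold change of the 9 was 0.12. In 7 of 9 the samples of the genotypes did not overlap, and this held for 65.3% of all tested genes, since samples that are parts of 1 library differ by sampling alone.

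**Figure D1:**
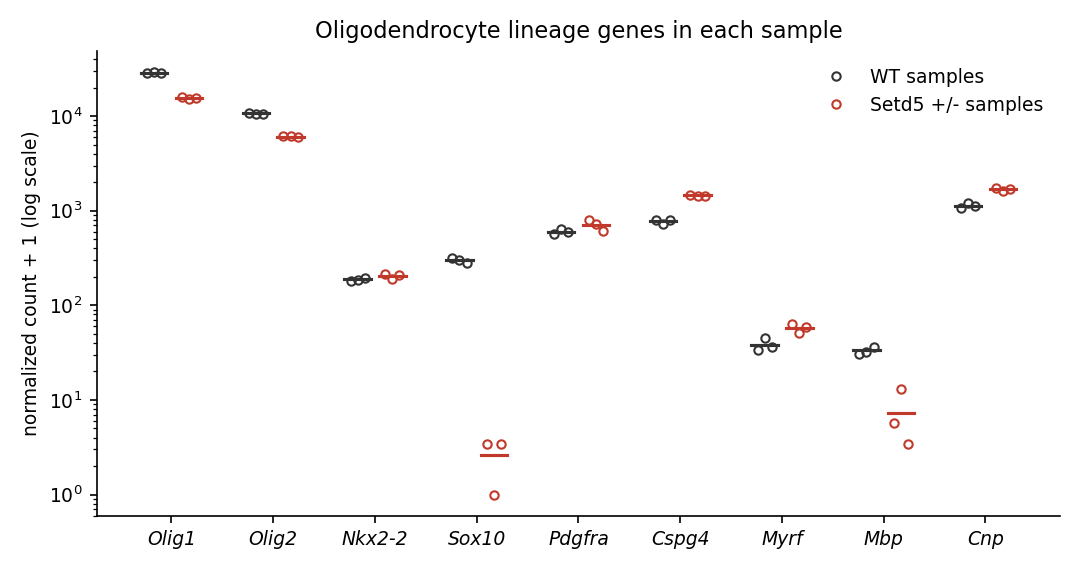
Normalized count plus 1 (log scale) of each gene in the 3 WT samples (black circles) and the 3 Setd5+/- samples (red circles), with the mean of each genotype as a line. The means of Sox10 are 298.2 in WT and 1.59 in Setd5+/-, those of Mbp 32.3 and 6.35, and the other genes lie within 2-fold.

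Olig1 and Olig2, neighbouring bHLH genes that specify the lineage, were the most abundant of the 9. Olig1 (ENSMUSG00000046160, mm10 chr16:91269772-91271933, plus strand) had 28716, 29313 and 28571 normalized counts in the 3 parts of the WT library, and the mutant parts had 15881, 15192 and 15399. Every mutant sample was below every WT sample, and the log2 fold change of Setd5+/- against WT was -0.90 (-0.92 to -0.87). For Olig2 (ENSMUSG00000039830, mm10 chr16:91225457-91228677, plus strand) the WT samples had 10752, 10616 and 10570.3 normalized counts and the mutant samples 6155, 6091 and 5989.5. The samples again did not overlap, and the log2 fold change was -0.81 (-0.85 to -0.77). Mutant cells thus held 53.7% of the WT level of Olig1 and 57.1% of that of Olig2. Both genes together took 0.477% of the WT reads on genes and 0.253% of the mutant reads. In bulk samples, fewer cells with a transcript and less of it per cell cannot be told apart.

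Nkx2-2, a homeobox factor of ventral progenitors that also acts as precursors differentiate, was the lineage gene with the smallest difference. Nkx2-2 (ENSMUSG00000027434, mm10 chr2:147177546-147194243, minus strand) had 181.6, 182.8 and 195.4 normalized counts in WT and 213.3, 188.2 and 207.3 in Setd5+/- samples. The lowest mutant sample lay inside the WT range, and the log2 fold change of 0.12 had an interval of -0.12 to 0.36 that includes 0.

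Sox10, an HMG-box factor kept on from precursor to myelinating cell, differed most. Sox10 (ENSMUSG00000033006, mm10 chr15:79154908-79165240, minus strand) had 316.8, 297.8 and 279.9 normalized counts in WT and 2.38, 0 and 2.38 in Setd5+/- samples. This corresponds to 1080 WT reads against 4 mutant reads, that is, a count of 2 read pairs in the mutant library. The mutant level was 0.533% of the WT level, with a counting interval of 0.0644% to 1.93% and a log2 fold change of -7.55 (-10.60 to -5.69), and 0.172% of the tested genes had a lower one. The other SoxE genes, Sox8 and Sox9, were looked up after the values of Sox10 were seen. Sox8, which is also active in the lineage, had 2542 to 2621 normalized counts in WT and 4118 to 4373 in Setd5+/- samples, a log2 fold change of 0.70 (0.65 to 0.76). Sox9, a factor of progenitors and astrocytes, had 1432 to 1475 and 1257 to 1364, a log2 fold change of -0.13 (-0.22 to -0.04). Neither was near the loss seen for Sox10, and the third Olig gene, Olig3, had 0 reads in both libraries.

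Pdgfra and Cspg4 encode surface proteins by which precursors are recognised, the receptor for PDGF-A and the proteoglycan NG2. Pdgfra (ENSMUSG00000029231, mm10 chr5:75152292-75198215, plus strand) had 562.2, 633.7 and 591.3 normalized counts in WT and 797.3, 726.4 and 606.3 in Setd5+/- samples. The genotypes overlapped, since the lowest mutant sample lay inside the WT range, and the log2 fold change was 0.25 (0.12 to 0.38). Cspg4 (ENSMUSG00000032911, mm10 chr9:56865033-56899870, plus strand) had 786.9, 722.2 and 797.5 normalized counts in WT and 1460.0, 1444.5 and 1440.2 in the mutant samples. All mutant samples were above all WT samples, and the log2 fold change of 0.91 (0.81 to 1.02) was the largest rise among the 9, with an interval that reaches past 2-fold. Pdgfra and Cspg4, both markers of OPCs, therefore differed in size of change, 1.19-fold (1.09 to 1.3) against 1.88-fold (1.76 to 2.02) higher, and their counting intervals did not overlap.

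Myrf, the membrane-bound factor that activates myelin genes, was low in both libraries. Myrf (ENSMUSG00000036098, mm10 chr19:10208272-10240748, minus strand) had 32.3, 43.8 and 35.6 normalized counts in WT and 63.2, 50.02 and 58.4 in Setd5+/- samples. The samples did not overlap, but only 135 and 144 reads stand behind the log2 fold change of 0.62 (0.12 to 1.12).

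The myelin genes Mbp and Cnp went opposite ways. Mbp (ENSMUSG00000041607, mm10 chr18:82475146-82585637, plus strand), which encodes myelin basic protein, had 29.9, 31.4 and 35.6 normalized counts in WT and 4.77, 11.9 and 2.38 in Setd5+/- samples. The mutant samples were all below the WT samples, with 117 WT reads against 16 mutant reads and a log2 fold change of -2.35 (-3.62 to -1.27). Few mutant reads stand behind this value, which was -3.18 without Setd5+/- replicate 2, the highest of the mutant samples, and -1.95 without replicate 3. Cnp (ENSMUSG00000006782, mm10 chr11:100574904-100591729, plus strand), an enzyme of the non-compact myelin that is also made earlier in the lineage, had 1069, 1195 and 1115 normalized counts in WT and 1732, 1618 and 1705 in Setd5+/- samples. Here every mutant sample was the higher one, and the log2 fold change was 0.58 (0.49 to 0.67).

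**Figure D2:**
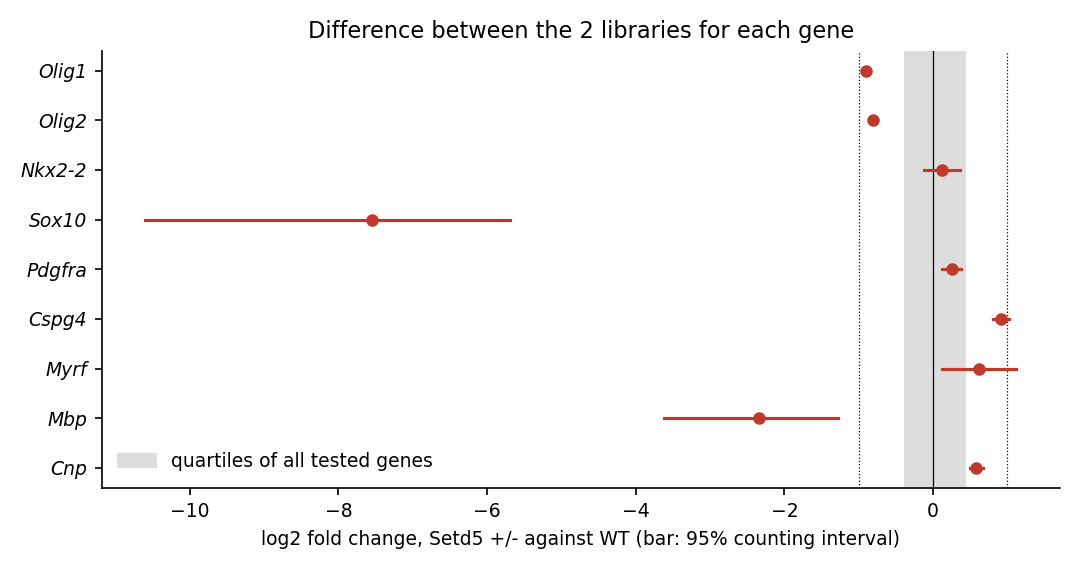
Log2 fold change of each gene, Setd5+/- against WT, with its 95% counting interval (red bar); the grey band is the range between the quartiles of all tested genes (-0.38 to 0.43) and the dotted lines mark 2-fold. Sox10 and Mbp lie beyond 2-fold, Nkx2-2 and Pdgfra lie inside the band.

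Levels can be compared between genes only per length, and for this the normalized count was divided by the length of all annotated exons of the gene together. In WT cells the order was Olig1 with 13352 normalized counts per kb, Olig2 with 4208, Cnp with 309.4, Sox10 with 97.7, Nkx2-2 with 64.9, Cspg4 with 64.4, Pdgfra with 59.4, Myrf with 4.35 and Mbp with 3.81. The neighbours Nkx2-2 and Cspg4, and the neighbours Myrf and Mbp, did not differ beyond counting error, and the step from Cspg4 to Pdgfra had a ratio of 1.08 with an interval from just above equality to 1.18. In Setd5+/- cells the order was Olig1 with 7165, Olig2 with 2403, Cnp with 463, Cspg4 with 121.4, Pdgfra with 70.8, Nkx2-2 with 70.6, Myrf with 6.68, Mbp with 0.75 and Sox10 with 0.521 normalized counts per kb. There, Pdgfra and Nkx2-2 did not differ beyond counting error, nor did Mbp and Sox10. Among the 16266 tested genes ranked by level per kb, Olig1 was at rank 16 in WT and 23 in mutant cells, Olig2 at 46 and 94, Cnp at 1569 and 914, Cspg4 at 7580 and 4613, and Sox10 at 5593 and 16187. The pair at the top had similar proportions in both genotypes. There was 3.17 times as much Olig1 as Olig2 per kb in WT (3.12 to 3.23) and 2.98 times in Setd5+/- cells (2.9 to 3.06). These 2 counting intervals did not overlap.

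**Figure D3:**
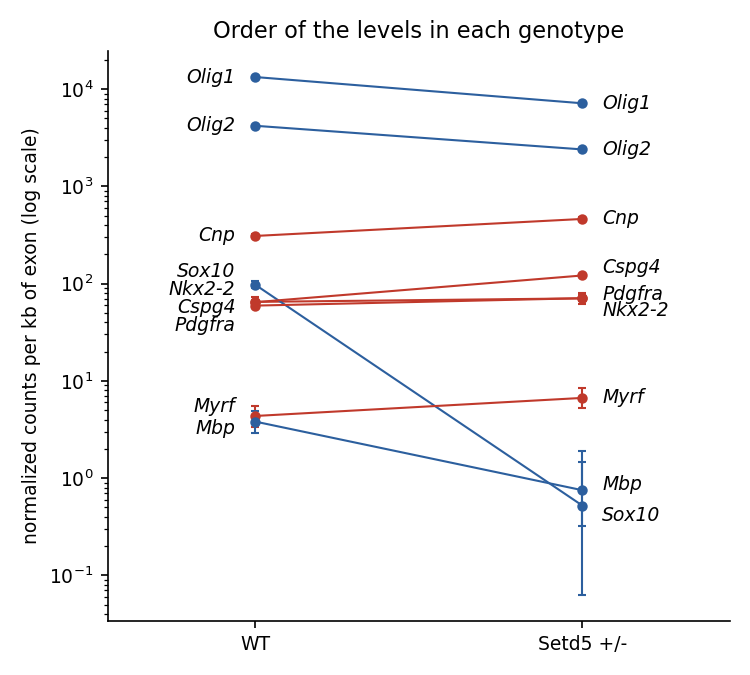
Level of each gene in normalized counts per kb of exon (log scale) in WT and Setd5+/- cells, with 95% counting intervals; red lines join genes that were higher and blue lines genes that were lower in the mutant library. Sox10 lies between Cnp and Nkx2-2 in WT (97.7) and last in Setd5+/- cells (0.521), and the order of the other genes changes by small steps.

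The lineage was then followed through further lists of genes, also drawn up with earlier results known and described by their counts. Of 18 further OPC genes, 17 were tested, of which 4 were at least 2-fold higher (background 10.6%), 4 at least 2-fold lower (background 6.34%) and 9 in between, with a median log2 fold change of -0.21 against -0.02 for all tested genes. The largest rises were those of Gpr37l1, a G protein-coupled receptor, from 263.4 to 2521 normalized counts (log2 fold change 3.26, 3.12 to 3.40), of Neu4, a sialidase, from 8.84 to 64.3 (2.86, 2.08 to 3.74), and of Vcan, the proteoglycan versican, from 739.6 to 2477 (1.74, 1.65 to 1.84). Gpr37l1 and Neu4 lie on chromosome 1, and without that chromosome 2 genes of the list were at least 2-fold higher. The largest falls were those of Matn4, a matrix protein of the matrilin family, from 123.4 to 1.98 (log2 fold change -5.96, -8.56 to -4.26, on 5 mutant reads), of Cacng4, a subunit that regulates AMPA receptors, from 468.5 to 113.6 (-2.04, -2.31 to -1.79), and of Rlbp1, a retinaldehyde-binding protein, from 489.7 to 131.1 (-1.90, -2.15 to -1.66). The OPC list was thus split in both directions. Neu4 passed the filter only through its mutant level, and Matn4 only through its WT level.

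Of 15 premyelinating genes in the table, 13 were tested, with a median of 0.31. These genes are linked to cells leaving the precursor state, but not all are specific to such cells. None was past 2-fold in either direction, beside backgrounds of 10.6% higher and 6.34% lower. Of 29 myelin genes, 16 were tested, with a median of 0.61. At least 2-fold higher were 7 (background 10.6%), and at least 2-fold lower were 2 (background 6.34%). The largest rises were those of Cldn11, the tight-junction protein of myelin, from 6.07 to 33 normalized counts (log2 fold change 2.44, 1.46 to 3.55), of Cryab, a small heat shock protein, from 83.4 to 435.2 (2.38, 2.12 to 2.65), and of Tspan2, a tetraspanin, from 22.4 to 98.9 (2.14, 1.62 to 2.69). Ugt8a, the enzyme that makes galactocerebroside, had 24.3 normalized counts in WT and 0 reads in the mutant library, where a count of 0 allows up to 3 read pairs or 2.38 normalized counts, and was thus at least 10.2-fold lower than the WT level of 24.3. With the counting error of the 88 WT reads included, the interval of the ratio begins at 7.95-fold lower. Car2, carbonic anhydrase II, was the other gene past 2-fold lower, from 2150 to 675.1 (-1.67, -1.78 to -1.56). Cldn11 passed the filter only through its mutant level, and Ugt8a only through its WT level. The 13 myelin genes that did not pass the filter include Mag, Mog, Mobp and Opalin, which mark mature oligodendrocytes and had at most 7 reads in either library. Mature oligodendrocyte transcripts were therefore at or near 0 in both genotypes.

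Among ligands and receptors that act on the lineage, a list that also holds the Gli factors, 16 of 25 were tested, with a median of 0.08. Of these, 2 were at least 2-fold higher (background 10.6%) and 0 at least 2-fold lower (background 6.34%). The 2 were Gli3, a transcription factor of the hedgehog pathway, from 42.2 to 137.4 normalized counts (log2 fold change 1.70, 1.31 to 2.11), and Ptch1, the hedgehog receptor, from 1246 to 2952 (1.24, 1.17 to 1.32). Other hedgehog genes of the list, named after their values were seen, went both ways. Smo had 0.84 (0.74 to 0.94) and Gli2 -0.75 (-1.08 to -0.44). Gli1 had 6 WT and 4 mutant reads, and Shh 4 and 0. Among genes known to hold the lineage back, 13 of 16 were tested, with a median of -0.43. Beside the same backgrounds, 2 were at least 2-fold higher and 3 at least 2-fold lower. Higher were Lingo1, a membrane protein that restrains myelination, from 105.5 to 662.4 (2.65, 2.42 to 2.89), and Notch1, from 2576 to 7859 (1.61, 1.56 to 1.66). Lower were Id4, an inhibitor of bHLH factors, from 216.5 to 73.5 (-1.56, -1.90 to -1.23), the ligand Bmp7, from 1455 to 593.7 (-1.29, -1.41 to -1.18), and Hes1, a repressor downstream of Notch, from 475.7 to 223.6 (-1.09, -1.29 to -0.89).

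**Figure D4:**
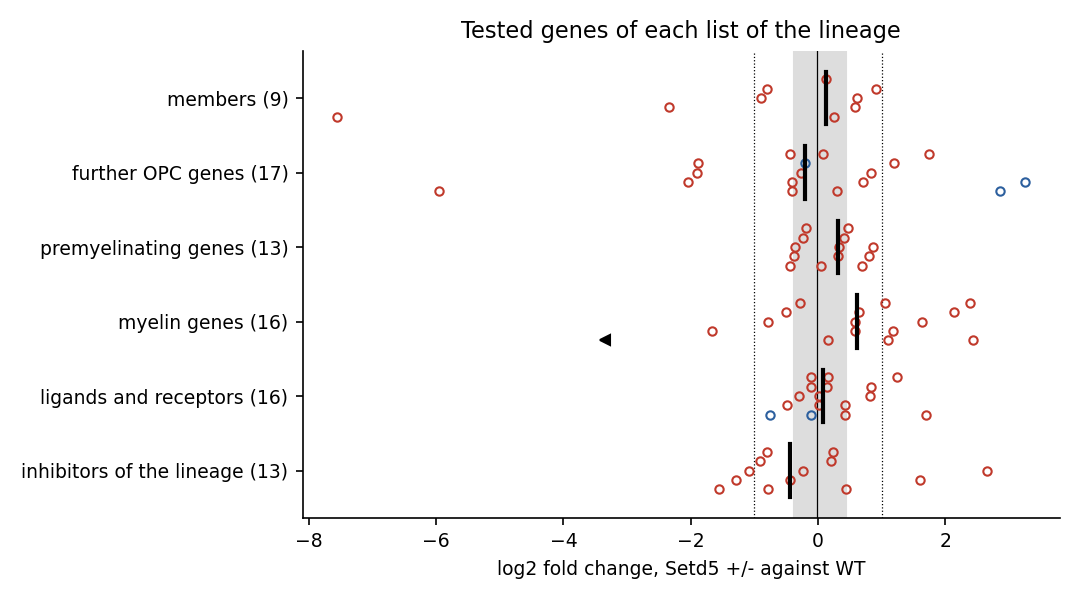
Log2 fold change of every tested gene (circles) in the 9 genes and 5 further lists of the lineage, with the number tested in brackets, the list median (black bar), the range between the quartiles of all tested genes (grey) and 2-fold (dotted); blue circles are genes of chromosome 1 and the black triangle is Ugt8a at its bound. The myelin list has the highest median (0.61) and the list of inhibitors the lowest (-0.43).

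Markers of cell types that an NSC culture could hold were set beside these values. Of the markers of the labelled cell type, neural stem cells, 12 of 12 were tested, none was at 0, and their summed level ran from 74734 to 75052 normalized counts over the WT samples and from 54211 to 54921 over the mutant ones. The most abundant of them was Fabp7, a fatty acid-binding protein of radial glia, at 36015 against 11490 (log2 fold change -1.65, -1.67 to -1.62), and without it the sums were higher in the mutant samples, 42643 to 43538 against 38821 to 38931. The list's largest rise was that of Gfap, an intermediate filament of astrocytes and some stem cells, from 17.1 to 263.3 (3.94, 3.41 to 4.52), and its largest fall that of Prom1, from 24.6 to 2.38 (-3.37, -5.70 to -1.73). Prom1 passed the filter only through its WT level. All 10 astrocyte markers were tested, with sums of 17976 to 18216 in WT and 16404 to 16498 in Setd5+/- samples. Of these, 3 were at least 2-fold higher (background 10.6%) and 2 at least 2-fold lower (background 6.34%). Gfap again had the largest rise, the glutamate transporter Slc1a2 had the largest fall, from 4678 to 1225 (-1.93, -2.01 to -1.86), and Aldoc was the most abundant, at 5730 and 7371 (0.36, 0.32 to 0.40).

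Neuron markers were tested in 7 of 12, of which 4 were at least 2-fold lower (background 6.34%). Their sums of 10994 to 11418 in WT and 12585 to 12706 in mutant samples are nearly all Map2, a gene of chromosome 1 with 9983 and 12445 (0.32, 0.29 to 0.35), and the synaptic vesicle gene Syt1 had the largest fall, from 64.9 to 5.16 (-3.65, -5.06 to -2.53). Syt1 passed the filter only through its WT level, and Neurod1 and Slc17a6 were at 0 in both libraries. Mesenchymal and pericyte markers, which include cells that also carry PDGFRA or NG2, were tested in 4 of 16, with sums of 595.7 to 607.9 in WT and 3750 to 3917 in mutant samples. Nearly all of that difference is Fn1, fibronectin, another gene of chromosome 1, from 67.9 to 2991 (5.46, 5.20 to 5.73). The largest fall, of Tagln, went from 25.9 to 15.5 (-0.74, -1.59 to 0.04), and the other tested markers, Prrx1 and Fbln1, named after their values were seen, went from 382.1 to 627 (0.71, 0.57 to 0.86) and from 105.2 to 160 (0.61, 0.31 to 0.90). Without Fn1 the sums were 519.2 to 546 in WT and 775.9 to 855 in mutant samples. Of the other defining markers, Lum, Twist1 and Kcnj8 were at 0 in both libraries and Pdgfrb had 2 and 0 reads. Further untested markers, named after their values were seen, had some reads in WT and mutant libraries: Acta2 28 and 2, Col1a1 22 and 16, and Rgs5 8 and 16.

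Neural crest and Schwann cells also use Sox10, Mbp and Cnp. Their markers were tested in 5 of 12, with sums of 549.1 to 627.1 in WT and 826.5 to 942.7 in mutant samples. Cdh19, on chromosome 1, was the most abundant and had the largest rise, from 236.6 to 501.5 (1.08, 0.90 to 1.26), and Egr2, a factor of Schwann cells that is also induced by growth signals in other cells, had the largest fall, from 129.2 to 4.37 (-4.89, -6.43 to -3.70). Egr2 passed the filter only through its WT level, and Foxd3 was at 0 in both libraries. Of 8 microglia markers only Csf1r was tested, at 98 and 53.6 (-0.87, -1.30 to -0.46), the sums were 78.6 to 118.6 and 51.2 to 70.3, and Cx3cr1, Ptprc and C1qa were at 0 in both libraries. The part of these cell types in the levels of the lineage genes was not tested.

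Position in the genome was not used to choose the genes, and the tested genes starting within 500 kb of each were listed. Around Sox10 there were 30 such genes, and the median of their log2 fold changes was -0.02, 15 being higher and 15 lower. Of the 30, 5 were at least 2-fold higher (background 10.6%) and 1 at least 2-fold lower (background 6.34%). The nearest on either side were Polr2f, an RNA polymerase subunit, from 619.8 to 405.4 normalized counts (-0.61, -0.77 to -0.46), and Pick1, a PDZ protein, from 408.6 to 326.8 (-0.32, -0.50 to -0.15). The lowest neighbour, Maff, picked out after its value was seen, had -2.60, so no tested gene around Sox10 came near its -7.55. Maff, like Sox10, passed the filter only through its WT level.

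Olig1 and Olig2 start 44.3 kb apart. Each had 23 other tested genes near it, with a median of 0.03, and 12 of those near Olig1 and 13 of those near Olig2 were higher. Around each, 3 were at least 2-fold higher (background 10.6%) and 1 at least 2-fold lower (background 6.34%). For both, the gene at least 2-fold lower is Gm15966, a non-coding transcript on the opposite strand whose exons share 157 bases with those of Olig1. It went from 1857 to 880.4 normalized counts (-1.08, -1.18 to -0.98), and since the strand setting of the counting is not given, reads of both genes in the shared stretch cannot be told apart. On the other side the nearest tested gene, the pseudogene H3f3a-ps2, had 50.2 and 49.2 (-0.03, -0.52 to 0.45). Gm15964 (-0.99, -1.37 to -0.63) and Gart (-0.78, -0.94 to -0.63), named after their values were seen, were about as low as the Olig genes.

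Around Cspg4, 14 tested genes had a median of -0.20, and the only one past 2-fold was Lingo1, 247 kb away and named above as an inhibitor of the lineage, while Snx33 on the other side had 427.7 and 484.9 normalized counts (0.18, 0.03 to 0.34). Near Pdgfra 3 genes were tested, of which the related receptor Kit, at -1.47 (-1.74 to -1.22), was past 2-fold. The others were the pseudogene Gm2040 at -0.67 (-1.15 to -0.20) and Chic2, whose -0.05 had an interval (-0.21 to 0.10) that includes 0. Of the remaining nearest genes, Xrn2 and the antisense Nkx2-2os beside Nkx2-2 had -0.17 and 0.63, Tmem258 and Dagla beside Myrf -0.14 and 0.67, Zfp236 beside Mbp -0.12, and Ttc25 and Dnajc7 beside Cnp 0.68 and 0.07. Over all 124 neighbours of the 9 genes the median was -0.02. At least 2-fold higher were 14, and at least 2-fold lower were 5, beside 10.6% and 6.34% of all tested genes.

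**Figure D5:**
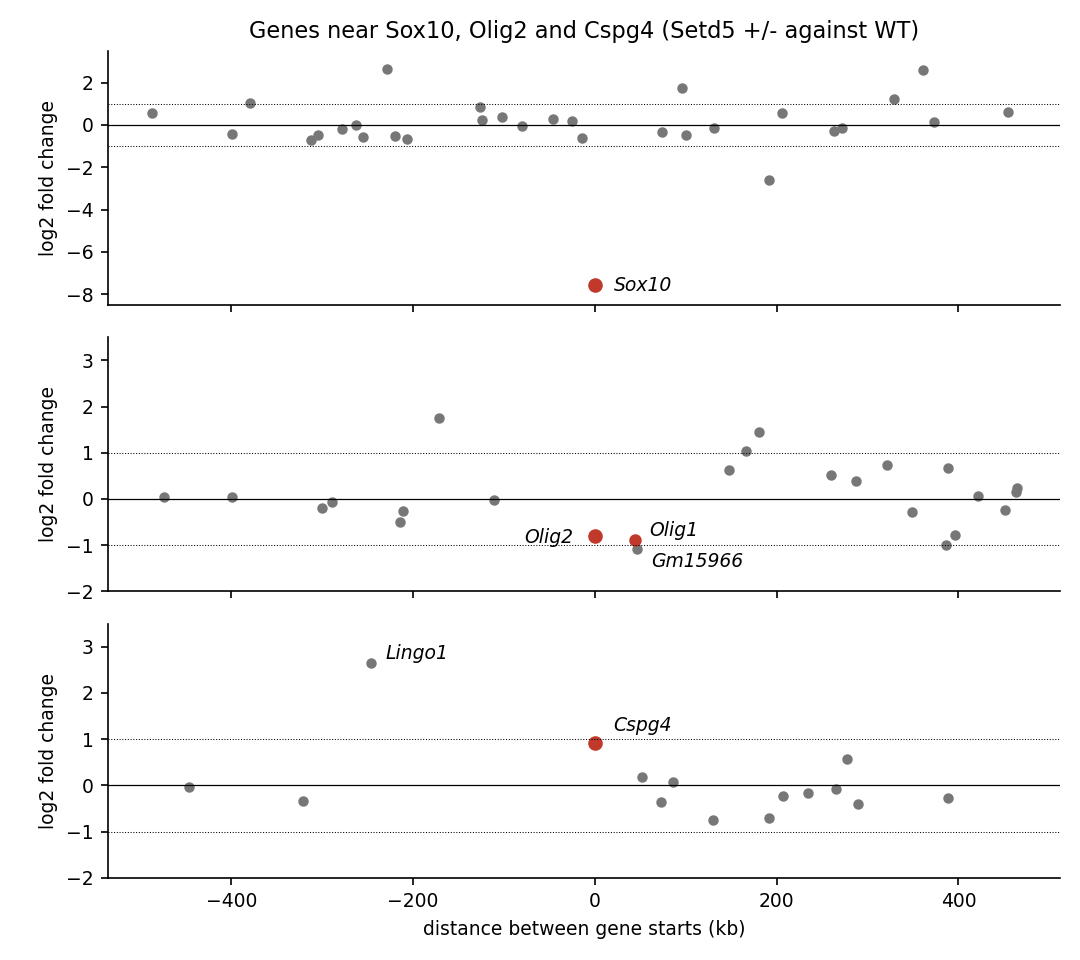
Log2 fold change, Setd5+/- against WT, of the tested genes (grey) that start within 500 kb of Sox10, Olig2 and Cspg4 (red), against the distance between gene starts in kb; dotted lines mark 2-fold. Sox10 stands far below its neighbours, and Lingo1 is the one high gene near Cspg4. Olig1, Olig2 and Gm15966 lie low side by side, and Gm15964 (-0.99) and Gart (-0.78) lie about as low farther away.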

How the data were processed

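RNA-seq was measured in NSCs labelled WT (3 samples) and Setd5+/- (3 samples), from paired-end TruSeq libraries. The authors trimmed reads with Trimmomatic, aligned them to mm10 with Bowtie2 and divided the counts on genes by DESeq2 size factors. The tools' versions, the counting program and its strand setting are not given in the sources used here. The deposited values are normalized counts per gene, beside the authors' own DESeq2 comparison, which was not used. Decimal points were missing from many deposited values. They were put back using the worth of 1 read in each sample and checked against the deposited means, and 99.9994% of 318660 values were recovered in a test on simulated data. The samples of a genotype agree within sampling noise and were counted as 1 library each.

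Log2 fold changes are ratios of mean normalized counts, with exact conditional binomial intervals (Clopper-Pearson, 95%) on read pairs, that is, reads divided by 2, since both ends of a pair were counted (variance over mean of reads 1.95 and 1.94 within the genotypes). No pseudocount was used. Genes whose mean reached 10 normalized counts were tested, and a gene past 2-fold was called. Where a library had 0 reads, 3 read pairs over the library were the floor. On these normalized values limma 3.58.1 in R 4.3.3 on log2(normalized count + 1) gave only a count over all genes, because it compares the reads of 2 libraries. Exon lengths and positions are from GENCODE M21 (GRCm38, the build of mm10) and promoters from RefSeq. Python 3.11.15 and SciPy 1.17.1 were used.

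The 9 genes, the other lists and the rules were chosen with earlier results of these data known. Named genes are the 9, Setd5, up to 3 largest rises and 3 largest falls past 2-fold in each lineage list, the largest rise, largest fall and most abundant gene of each marker list, and the nearest tested gene on either side within 500 kb. One listed symbol, Cemip2, was not matched. Alternatives were other scalings, filters, thresholds and pseudocounts, and leaving out each sample.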

Additional observations from a re-analysis of the deposited data

How the results depend on the processing

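With 1 library of each genotype, no value measures how cultures of a genotype differ. Depth limits Sox10, Mbp and Myrf, which rest on few reads, and does not settle the direction of Nkx2-2, whose interval includes 0. No value of the 9 genes changed sign under any alternative run. With libraries scaled to equal totals, Olig1 had -0.94 and Olig2 -0.85, outside their counting intervals; the other scaling, the pseudocount and leaving out any sample kept every gene inside its interval. Leaving out 1 sample still gave -3.18 to -1.95 for Mbp and -7.97 to -6.97 for Sox10, the ends set by Setd5+/- samples. At 1.5-fold, 2 of the 9 were higher and 4 lower, against 3240 and 2565 of the 16266 tested genes. Nothing is read from these counts either, since the same contrast was known when the genes were chosen. At a filter of 50, which Mbp and Myrf do not pass, Sox10 alone of the 9 was at least 2-fold lower. With no filter, 5069 of the 26797 genes with a read were at least 2-fold higher and 4904 lower. A filter of 50 gave 1044 and 596 of 12570 genes, against 1719 and 1032 of 16266. With a filter of 50, 1 myelin gene was lower in place of 2. Without chromosome 1, chosen after seeing the data, 2 further OPC genes were higher in place of 4. The limma count compares the reads of 2 libraries and called 9963 of 16266 genes (4935 higher), 9946 with the sample number as a replicate block, 9160 to 9553 when 1 sample was left out. The numbers do not pair the samples, since deviations of same-numbered samples correlated between -0.007 and 0.005.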

Other observations

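Other transcripts overlap some of the lineage genes on the opposite strand, and their values are given here without a comparison, because the strand setting of the counting is not given. Nkx2-2os, an antisense transcript that shares 278 exon bases with Nkx2-2, had 41.7 normalized counts in the WT library and 64.7 in the mutant one. Gm42802, which shares 456 exon bases with Pdgfra, had 10.2 in WT and 2.78 in the mutant library, and Gm42803, which shares 166, had 7.45 and 0.795. Dnajc7, a chaperone gene that shares 154 exon bases with Cnp, had 1587 and 1666. No annotated gene overlaps Sox10, Olig2, Cspg4 or Myrf, and a single pseudogene, Rpl21-ps8, lies inside Mbp without touching its exons.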
